A study of Mus musculus with 6 samples.

Results

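Wnt genes were followed through the response of mouse neural cultures to activation of the hedgehog pathway. The set held the Wnt ligands, the Frizzled receptors, the secreted Sfrp and Dkk antagonists with Frzb, Wif1 and Notum, the R-spondins with Lgr5, Rnf43 and Znrf3, the TCF/LEF factors Lef1, Tcf7l1 and Tcf7l2, and the feedback targets Axin2, Sp5 and Nkd1. Genes were taken by symbol from the array's platform annotation, which gave 53 of the 18193 genes on the array. The matching by symbol used no measured values, though earlier results of these data were known when genes and lists were chosen. These were 19 ligands, 10 receptors, 11 antagonists, 7 genes of the R-spondin axis, 3 TCF/LEF factors and 3 feedback targets. Tcf7, also named by the rule, was not analysed here.

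The samples were neuralized embryoid bodies, aggregates of mouse embryonic stem cells grown towards neural fates. The stem cell line of all cultures, controls included, expressed Gli1 with a FLAG tag from the constitutive Rosa26 promoter, so both groups carried extra copies of this hedgehog transcription factor. After 2 days in suspension, 3 RA cultures received 500 nM all-trans retinoic acid for 3 days. The 3 RA_Ag1.3 cultures, called Ag1.3 cultures here, received the same retinoic acid together with 50 nM Ag1.3, which activates Smoothened, the signal transducer of the hedgehog pathway in the cell membrane. The series' design text describes parallel cultures, so each RA culture was compared with the Ag1.3 culture of the same number, giving 3 pairs. Each culture was measured on 1 Affymetrix Mouse Genome 430 2.0 array, and the values below are its linear probe set intensities unless a log2 difference is named.

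Wnt proteins are secreted, lipid-modified signals that bind Frizzled receptors together with Lrp5 or Lrp6. In the canonical branch this stabilises beta-catenin, which joins TCF/LEF factors on DNA and turns on targets such as Axin2, and in another branch Frizzled receptors act with Celsr and Vangl proteins in planar cell polarity. In the developing spinal cord, Wnt ligands of the roof plate mark the dorsal side, opposite the ventral floor plate that secretes Sonic hedgehog.

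Genes known to respond to hedgehog signals checked the labels first. Ptch1, a direct hedgehog target and receptor, rose by 1.23 ± 0.13 on the log2 scale (SE, limma adjusted p = 0.0235), higher in 3 of 3 pairs. Gli1 read 1.21 ± 0.22 higher without passing the threshold (limma adjusted p = 0.0791), and its probe set may also read the transgene. The 8 neural progenitor genes had summed intensities per array of 5711 to 8344 (RA) and 6760 to 8810 (Ag1.3), and 1 of them, Notch1, rose. Of the 8, 5 had an unadjusted p under 0.05, a mark reached by 14.9% of all genes. Notch1, Hes5, Fabp7 and Nes read higher, at 0.66, 0.46, 0.39 and 0.27 on the log2 scale, and Pax6 lower, at -0.48. Other marker lists moved with the treatment. A list of dorsal and intermediate progenitor genes had 8 names, and all 7 measured, Dbx1, Irx3, Irx5, Pax3, Pax7, Zic1 and Zic5, fell, with sums of 2360 to 6022 (RA) and 637 to 1584 (Ag1.3). Dbx1, Irx3 and Irx5, which are not restricted to dorsal progenitors, supplied 69.9% to 92.6% of these sums, and the other 4 genes alone summed to 590 to 1681 and 116 to 192. Neuron genes rose in 7 of 8 cases, with sums of 1920 to 3281 and 5903 to 8375, and floor plate genes in 4 of the 7 measured of 8 listed, with sums of 914 to 1093 and 1892 to 2999. Endoderm genes fell in 2 of 8 cases (883 to 1972 and 629 to 1543) and pluripotency genes in 1 of 6 (2320 to 4539 and 1424 to 3348). All 6 pluripotency genes read below 0, with a median of -0.70 on the log2 scale, and 5 of them had an unadjusted p under 0.05, as had 3 of the 8 endoderm genes. In RA replicate 3 the pluripotency genes summed to 4539 and the endoderm genes to 1972, the highest of the RA arrays, and its sums of neuron genes and of the Dbx1 to Zic5 list were the lowest. Its partner, Ag1.3 replicate 3, stood the same way in these 4 sums among the Ag1.3 arrays. There 3348 and 1543 were the highest sums, and 5903 and 637 the lowest. Pax3, Pax7, Zic1 and Zic5 alone stood otherwise. They summed to 590 in RA replicate 3, the lowest of RA, and to 192 in Ag1.3 replicate 3, the highest of Ag1.3. None of the 7 measured mesoderm or 5 measured neural crest genes passed limma's threshold, with 1 of each list at an unadjusted p under 0.05 and sums of 188 to 303 and 290 to 342 over all arrays. These are bulk samples, in which fewer cells of a type and less RNA per cell cannot be told apart, and the part of these shifts in the results below was not tested.

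Over all Wnt genes, 3 passed the threshold. The secreted antagonist Sfrp1 and the ligand Wnt5a rose, and the secreted antagonist Frzb fell. That is 5.66% of the 53, where 252 of all 18193 genes passed, or 1.39%, with 1.07% of all genes higher and 0.313% lower (limma on log2(intensity + 16), Benjamini-Hochberg adjusted p under 0.05). An unadjusted p under 0.05 was reached by 15 Wnt genes, 7 higher and 8 lower, or 28.3%, against 14.9% of all genes. The 3 arrays of a group did not overlap with those of the other for 12 Wnt genes, 6 in each direction, or 22.6%, against 11.8% of all genes. Of these 12, Wnt2b and Wnt3a, both higher, were within the range of background defined below, which leaves 10, 4 higher and 6 lower. The median log2 difference was 0.02 for Wnt genes and -0.01 for all genes, and the median size of the difference regardless of sign was 0.17 and 0.10. Differences of at least 0.5 in either direction were measured for 6 of the 53 Wnt genes and for 574 of all 18193 genes. The range of the Wnt genes was -1.55 to 0.91. Intensities of control probe sets with no matching spike ran from 4.02 to 20.71 and served as the range of background. In 10 Wnt genes both group means lay within that range, so nothing can be said of their change, and 43 lay above it in at least 1 group. Of these 43, 23 read above 0, with a median of 0.01.

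**Figure D1:**
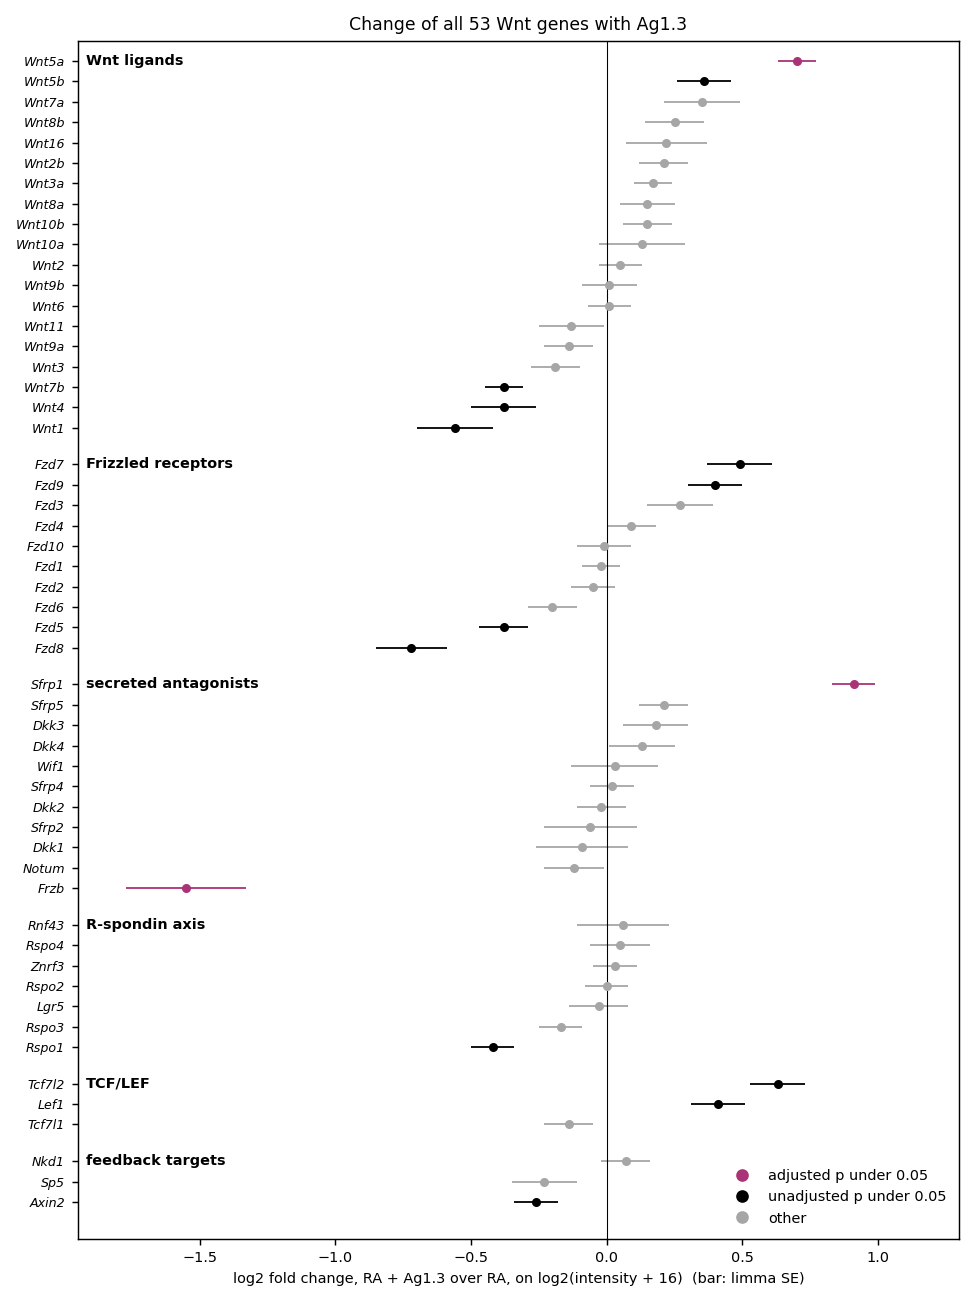
Log2 fold change of each of the 53 Wnt genes with Ag1.3 (x axis, log2(intensity + 16) scale, bars are limma's standard error), grouped by role and sorted within each group. Sfrp1 at 0.91, Wnt5a at 0.70 and Frzb at -1.55 passed the adjusted threshold, and all others but Tcf7l2, Fzd8 and Wnt1 sit between -0.5 and 0.5.

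Among the 19 ligands, Wnt5a rose. Wnt5a is best known for noncanonical signalling, including planar cell polarity and outgrowth of the body axis. No other ligand passed the threshold, and 4 more had an unadjusted p under 0.05, of which Wnt5b read higher and Wnt7b, Wnt1 and Wnt4 read lower. With Wnt5a these were 26.3% of the ligands, against 14.9% of all genes. The median log2 difference of the ligands was 0.13.

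In RA replicates 1, 2 and 3 the intensity of Wnt5a was 138, 79.1 and 50.9, and in their Ag1.3 partners it was 229, 139 and 94.3. Levels of the groups overlapped because pair 1 was bright and pair 3 dim in both groups, but every Ag1.3 culture read above its own partner. The means were 89.3 ± 44.4 and 154 ± 68.8 (SD, n = 3 each), and the log2 differences of the pairs were 0.67, 0.71 and 0.72, or 0.70 ± 0.07 together (SE, limma adjusted p = 0.0213, 1.63-fold). The 3 further probe sets of the gene read 0.24, 0.30 and 0.17 higher, so the direction was shared and the size was not. With the log2 values of all its probe sets averaged, the difference was 0.35 and limma's adjusted p was 0.13. The call was also lost without the replicate block (limma adjusted p = 0.781) and without any 1 of the 3 pairs, at 0.143, 0.14 and 0.0856, and with a pseudocount of 1, at 0.133.

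Wnt5b, the close relative of Wnt5a, read 62.7, 46.0 and 43.9 in RA and 83.9, 54.0 and 72.1 in Ag1.3 cultures. It was higher in 3 of 3 pairs, with overlap between RA replicate 1 and Ag1.3 replicate 2, at 0.36 ± 0.10 on the log2 scale (SE, limma adjusted p = 0.185), and its other probe set read 0.54 higher.

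Wnt7b, a ligand with roles in the growth of axons and dendrites, read 147, 164 and 129 in RA and 109, 118 and 101 in Ag1.3 cultures. All 3 RA arrays lay above all 3 Ag1.3 arrays, and the log2 difference was -0.38 ± 0.07 (SE, limma adjusted p = 0.0973). A further, dimmer probe set of Wnt7b read -0.76 with an unadjusted p of 0.00478.

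Wnt1, a ligand of the roof plate and dorsal midline, read 36.25, 30.5 and 26.55 in RA and 11.0, 19.5 and 17.8 in Ag1.3 cultures. The groups did not overlap, and the Ag1.3 mean of 16.1 ± 4.50 (SD, n = 3) lay within the range of background. Its log2 difference of -0.56 ± 0.14 did not pass the threshold (SE, limma adjusted p = 0.155). Wnt1, Wnt3a and the R-spondin Rspo1 also belonged to a list of roof plate and other dorsal genes, of which 9 of 10 were measured. None of these passed limma's threshold and 5 had an unadjusted p under 0.05, a mark reached by 14.9% of all genes. Besides Wnt1 these were Msx1, Msx2, Msx3 and Rspo1, each at least 0.38 lower. The other 4, Bmp6 at -0.23, Bmp7 at -0.06, Lmx1a at 0.05 and Wnt3a at 0.17, did not reach it, and the list's sum was 450 to 582 for RA and 363 to 445 for Ag1.3 cultures.

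Wnt4, a ligand of the spinal cord and of several other organs, read 78.15, 66.8 and 65.45 in RA and 50.9, 39.4 and 61.85 in Ag1.3 cultures. Its groups did not overlap, but pair 3 differed by only -0.07 against -0.49 and -0.58 in pairs 1 and 2. The log2 difference was -0.38 ± 0.12 (SE, limma adjusted p = 0.234), and the other probe set of Wnt4 read 0.07 in the opposite direction.

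The remaining 14 ligands, Wnt2, Wnt2b, Wnt3, Wnt3a, Wnt6, Wnt7a, Wnt8a, Wnt8b, Wnt9a, Wnt9b, Wnt10a, Wnt10b, Wnt11 and Wnt16, ranged from -0.19 to 0.35 on the log2 scale, 11 of them above 0. For the 9 of these above the range of background in at least 1 group, the range was -0.14 to 0.35, with 7 above 0. Wnt7a, at the top of that range, read 170.4, 126 and 177 in RA and 235, 208 and 172 in Ag1.3 cultures, higher in pairs 1 and 2 and level in pair 3 (0.35 ± 0.14, SE, limma adjusted p = 0.341). Wnt6, whose probe set had the highest mean intensity of the ligands, read 284 ± 20.6 in RA and 287 ± 35.1 in Ag1.3 cultures (SD, n = 3 each). Its 6 arrays ran from 253 to 323, and the difference of 0.01 ± 0.08 lay well inside their spread (SE, limma adjusted p = 0.972). Wnt2, Wnt2b, Wnt3, Wnt3a and Wnt16 were within the range of background in both groups. For Wnt3a, the other well-known roof plate Wnt, the array read 1.06 or less in RA and 3.71 or less in Ag1.3 cultures.

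**Figure D2:**
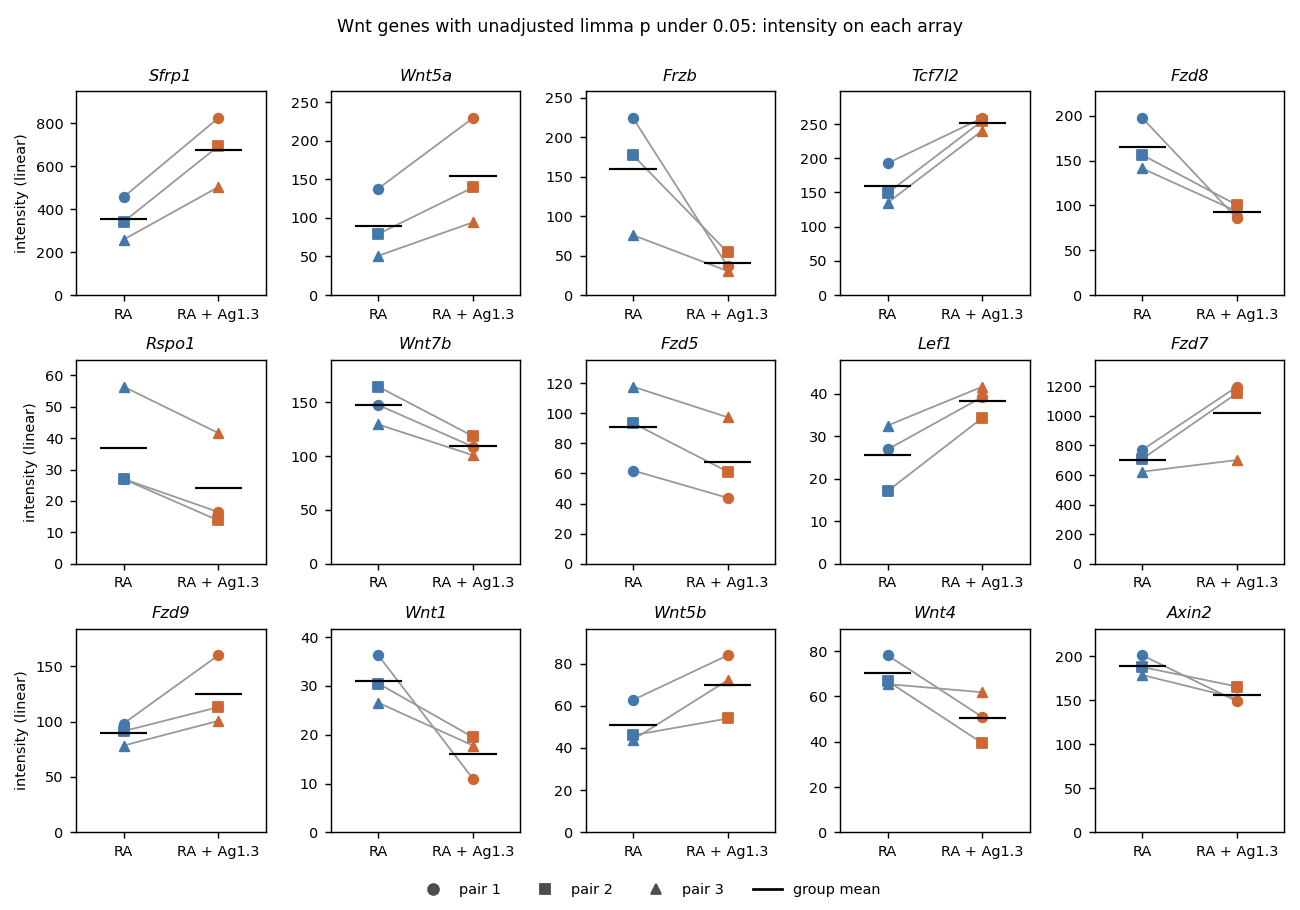
Linear probe set intensity (y axis, from 0) on each of the 6 arrays for the 15 Wnt genes with an unadjusted limma p under 0.05. Lines join the cultures of a pair, symbols mark pairs 1 to 3, and black bars are group means. The lines of Sfrp1 and Wnt5a run upwards in every pair. Frzb starts at 224, 177 and 75.85 in RA and ends at 36.5, 54.1 and 30.3 in Ag1.3 cultures.

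None of the 10 Frizzled receptors passed the adjusted threshold. Unadjusted p was under 0.05 for 4 of them, or 40.0%, against 14.9% of all genes. Fzd7 and Fzd9 read higher and Fzd8 and Fzd5 lower in Ag1.3 cultures. All 10 read above the range of background, and their median log2 difference was -0.02.

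Fzd8 had the smallest p of the receptors, at an unadjusted p of 0.00184. It read 197, 156 and 141 in RA and 85.5, 100.4 and 93.25 in Ag1.3 cultures. The groups were well separated, with means of 165 ± 29.15 and 93.0 ± 7.42 (SD, n = 3 each) and a log2 difference of -0.72 ± 0.13 (SE, limma adjusted p = 0.0772). A second, dimmer Fzd8 probe set read -0.24.

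Fzd5, another receptor used in canonical signalling, read 62.0, 93.5 and 118 in RA and 43.8, 61.2 and 97.4 in Ag1.3 cultures. Pair 3 was the brightest in both groups, so the groups overlapped while each Ag1.3 culture read below its partner, at -0.38 ± 0.09 (SE, limma adjusted p = 0.131).

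Fzd7, a receptor abundant in embryonic stem cells, read 771, 709 and 622 in RA and 1198, 1154 and 701 in Ag1.3 cultures. Ag1.3 replicates 1 and 2 were far above all RA arrays, and replicate 3 was within the RA range. The log2 differences of pairs 1 to 3 were 0.63, 0.69 and 0.17, or 0.49 ± 0.12 together (SE, limma adjusted p = 0.153).

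Fzd9 read 98.2, 91.3 and 78.3 in RA and 159.75, 113 and 100.6 in Ag1.3 cultures, with no overlap, at 0.40 ± 0.10 (SE, limma adjusted p = 0.154). Fzd3, which works with the Celsr proteins in axon guidance, had the probe set with the highest mean of the receptors and read 1086, 969.9 and 532 in RA and 1151, 1055 and 815 in Ag1.3 cultures. Pair 3 was dim in both groups and supplied most of the difference, at 0.60 against 0.08 and 0.12 in pairs 1 and 2 (0.27 ± 0.12 together, SE, limma adjusted p = 0.402). The other receptors, Fzd1, Fzd2, Fzd4, Fzd6 and Fzd10, lay between -0.20 and 0.09, with Fzd6 lowest and Fzd4 highest.

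The antagonists held the widest differences, in opposite directions. Sfrp1 rose 1.88-fold and Frzb fell 2.92-fold. Both encode secreted proteins with a cysteine-rich domain like that of Frizzled receptors, with which they can bind Wnt ligands outside the cell. No other antagonist of the 11 had an unadjusted p under 0.05.

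Sfrp1 read 457, 341 and 258 in RA and 825, 693 and 503 in Ag1.3 cultures. All 3 Ag1.3 arrays lay above all RA arrays, and pair 1 was brightest and pair 3 dimmest in both groups. The means were 352 ± 99.5 and 674 ± 162 (SD, n = 3 each), and the pairs differed by 0.83, 0.99 and 0.92, or 0.91 ± 0.08 together (SE, limma adjusted p = 0.0129). Of all 18193 genes, Sfrp1 ranked 58 by the size of its test statistic. Its 4 further probe sets read 0.79, 0.44, 0.96 and 0.28 higher, each with an unadjusted p under 0.05. Without the replicate block limma's adjusted p was 0.339, and without pair 1, 2 or 3 it was 0.0724, 0.0902 and 0.0792, and with a pseudocount of 1 it was 0.127, so the call was lost under each of these.

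Frzb read 224, 177 and 75.85 in RA and 36.5, 54.1 and 30.3 in Ag1.3 cultures. No Ag1.3 array reached the lowest RA array, and the RA arrays differed among themselves by more than the Ag1.3 arrays did. The means were 159 ± 75.8 and 40.3 ± 12.3 (SD, n = 3 each), and the pairs differed by -2.19, -1.46 and -0.99, or -1.55 ± 0.22 together (SE, limma adjusted p = 0.0492). A second, dimmer probe set of Frzb read -0.82 with an unadjusted p of 0.00848. The adjusted p was close to the threshold, and the call was lost without the replicate block, at 0.222, and without pair 1, 2 or 3, at 0.0785, 0.212 and 0.081 (limma). It was also lost with all probe sets averaged, at -1.19 on the log2 scale and 0.0798, and with a pseudocount of 1, at 0.204 (limma adjusted p).

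Frzb was the only one of the 3 called genes with an entry in the promoter table used, so its promoter is shown. The table gives RefSeq promoters of the GRCm38.p6 build, from 250 bases before to 50 after each annotated start. The sequence is the 250 bases before the start, chr2:80447397-80447646 on the minus strand, 64.4% G or C, and the capitals mark its GC box, GGGCGG.
Frzb: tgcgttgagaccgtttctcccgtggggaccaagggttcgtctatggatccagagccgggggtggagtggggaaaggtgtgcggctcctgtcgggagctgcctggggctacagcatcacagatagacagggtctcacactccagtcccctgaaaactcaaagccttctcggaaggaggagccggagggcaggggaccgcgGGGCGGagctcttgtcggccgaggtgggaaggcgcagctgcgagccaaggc
A GC box, searched on both strands and chosen after the data were seen, stood in 30 of the 44 promoters of Wnt genes in the table (68.2%) and in 35.7% of all 32851 promoters. The Gli consensus GACCACCCA, the site read by the hedgehog pathway's own factors, was in 0 of the 44 and in 0.253% of all. The 44 promoters belonged to 36 of the 53 genes, and the match counts describe these 300-base windows only.

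The other antagonists were Sfrp2, Sfrp4, Sfrp5, Dkk1, Dkk2, Dkk3, Dkk4, Wif1 and Notum, which ranged from -0.12 to 0.21. Sfrp5 read 0.21 higher, with 3 of 3 pairs in that direction, and Notum, an enzyme that removes the lipid from Wnt proteins, read 0.12 lower (both shown with their errors in the plot of all fold changes). Sfrp2, with the highest mean intensity of the antagonists' probe sets, read 1317, 1478 and 1223 in RA and 1530.1, 1667 and 813 in Ag1.3 cultures. Pairs 1 and 2 were higher by 0.21 and 0.17, pair 3 was lower by 0.58, and the combined difference of -0.06 ± 0.17 was smaller than its error (SE, limma adjusted p = 0.905). Dkk2 and Wif1 were within the range of background in both groups.

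Several Wnt genes are read by more than 1 probe set, which gives a second reading of the same RNA from the same arrays. Further probe sets numbered 50 for 32 Wnt genes, and 34 had the same sign of difference as the probe set used. Of the 16 with the opposite sign, none had an unadjusted p under 0.05. For Sfrp1, Wnt5a and Frzb all 8 further probe sets had the same sign, 6 of them with an unadjusted p under 0.05 (limma over all probe sets). Among the 15 genes with an unadjusted p under 0.05, 18 of 19 further probe sets had the same sign, the exception being that of Wnt4.

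**Figure D3:**
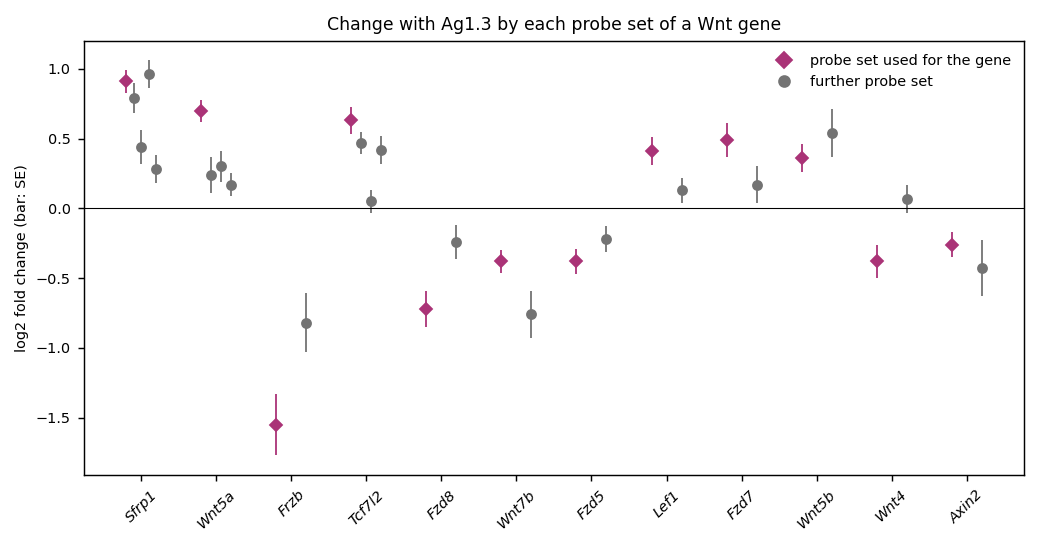
Log2 fold change with Ag1.3 (y axis, bars are limma's standard error) by each probe set of the 12 Wnt genes with an unadjusted p under 0.05 and several probe sets. Diamonds are the probe set used for the gene and circles the further ones. Sfrp1 lies above 0 in all 5, at 0.28 to 0.96, and 1 circle, that of Wnt4 at 0.07, lies across the line from its diamond.

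None of the 7 genes of the R-spondin axis passed limma's threshold, and 1, Rspo1, had an unadjusted p under 0.05, or 14.3%, against 14.9% of all genes. R-spondins are secreted proteins that bind Lgr receptors and hold back Rnf43 and Znrf3, ligases that remove Frizzled receptors from the cell surface. Rspo1 read 27.0, 27.0 and 56.4 in RA and 16.5, 13.8 and 41.65 in Ag1.3 cultures. Pair 3 was the brightest in both groups, and the Ag1.3 cultures of pairs 1 and 2 lay within the range of background. The log2 differences of -0.41, -0.53 and -0.33 gave -0.42 ± 0.08 together (SE, limma adjusted p = 0.0896). Rspo2, with the highest mean intensity in this group, read 231 ± 19.2 in RA and 232 ± 18.8 in Ag1.3 cultures (SD, n = 3 each), a difference of 0.00 ± 0.08 (SE, limma adjusted p = 0.996). Rspo3, Rspo4 and Rnf43 were within the range of background in both groups, and Lgr5 and Znrf3 read -0.03 and 0.03. Lgr5 marks stem cells in several adult epithelia, and its 6 arrays here overlapped between groups.

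The 3 TCF/LEF factors, the DNA-binding partners of beta-catenin, differed among themselves. None passed limma's adjusted threshold, and Tcf7l2 and Lef1 had an unadjusted p under 0.05. Tcf7l2 read 193, 149 and 135 in RA and 259, 255 and 241 in Ag1.3 cultures. The groups did not overlap, and the Ag1.3 arrays lay close together, at 251 ± 9.64 against 159 ± 30.2 (SD, n = 3 each). The log2 difference was 0.63 ± 0.10 (SE, limma adjusted p = 0.061), and further Tcf7l2 probe sets read 0.47, 0.05 and 0.42.

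Lef1, which needs beta-catenin to activate transcription, read 26.9, 17.1 and 32.5 in RA and 39.25, 34.3 and 41.7 in Ag1.3 cultures. The groups did not overlap at these low intensities, and the difference was 0.41 ± 0.10 (SE, limma adjusted p = 0.139). The other Lef1 probe set, with means of 22.5 in RA and 26.2 in Ag1.3 cultures, read 0.13 with overlapping groups (limma unadjusted p = 0.233). Tcf7l1, a factor that mainly represses Wnt targets in embryonic stem cells, read 559, 632 and 702 in RA and 486, 536 and 707 in Ag1.3 cultures. It was lower in pairs 1 and 2 and level in pair 3, at -0.14 ± 0.09 (SE, limma adjusted p = 0.533), and its other probe set read -0.26 with an unadjusted p of 0.0179.

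Feedback targets give the usual transcriptional readout of canonical signalling, and none of the 3 passed limma's threshold, with Axin2 alone at an unadjusted p under 0.05. Axin2, a scaffold of the complex that degrades beta-catenin, read 201, 188 and 179 in RA and 149, 166 and 152 in Ag1.3 cultures. The groups did not overlap, RA replicate 3 and Ag1.3 replicate 2 being the closest, and the log2 difference was -0.26 ± 0.08 (SE, limma adjusted p = 0.244). Its dimmer probe set read -0.43 with an unadjusted p of 0.0754. Sp5, a transcription factor switched on directly by Wnt signalling, read 47.3, 47.0 and 51.6 in RA and 48.7, 27.5 and 42.9 in Ag1.3 cultures, so that pair 2 carried most of its difference of -0.23 ± 0.12 (SE, limma adjusted p = 0.46). Nkd1, an inhibitor that binds Dishevelled, read 125 ± 12.7 and 132 ± 5.83 (SD, n = 3 each), with overlapping groups.

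The TCF/LEF core CTTTGAT, searched on both strands, stood in 3 of the 44 promoters of Wnt genes (6.82%) and in 3.73% of all promoters. The 3 genes were Sp5, Wnt5b and Wnt11, and the core with 20 bases on each side is shown for each because it is the letter pattern that beta-catenin's partners read. Positions refer to GRCm38.p6, the capitals mark the core, and in Wnt11 it lies on the other strand. The stretches are chr2:70474799-70474845 on the plus strand for Sp5, chr6:119449431-119449477 on the minus strand for Wnt5b and chr7:98835041-98835087 on the plus strand for Wnt11, which begin 124, 91 and 71 bases before the start.
Sp5: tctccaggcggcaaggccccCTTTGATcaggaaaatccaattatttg
Wnt5b: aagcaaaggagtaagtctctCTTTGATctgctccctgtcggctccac
Wnt11: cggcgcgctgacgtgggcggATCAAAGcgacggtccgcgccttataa
Their log2 differences with Ag1.3 were -0.23 for Sp5, 0.36 for Wnt5b and -0.13 for Wnt11, none past the adjusted threshold. No motif searched overlapped another in these promoters, and a match is a run of letters, not a bound site.

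A wider list of Wnt pathway genes outside the families above had 61 names, of which 59 were measured. Celsr3 and Celsr1 rose and no listed gene fell, which is 3.39% of the 59 beside the 1.39% of all genes. An unadjusted p under 0.05 was reached by 19 of the 59, or 32.2%, against 14.9% of all genes. Celsr proteins are large cadherins of the planar cell polarity system, which orients cells within a sheet and guides axons. The polarity genes numbered 9, and 8 of them read above 0, the exception being Daam2 at -0.27. An unadjusted p under 0.05 was reached by 6 of the 9, or 66.7%, 5 higher and Daam2 lower. The groups did not overlap for 5 of the 9, or 55.6%, against 11.8% of all genes, 4 higher and Daam2 lower.

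Celsr3 read 85.7, 91.5 and 54.3 in RA and 186, 174 and 144 in Ag1.3 cultures. The groups did not overlap, with means of 77.2 ± 20.1 and 168 ± 21.9 (SD, n = 3 each), and the log2 difference was 1.0 ± 0.10 (SE, limma adjusted p = 0.018). Celsr1 read 234, 196 and 198 in RA and 496, 456 and 303 in Ag1.3 cultures. Its groups did not overlap either, though Ag1.3 replicate 3 lay well below the other Ag1.3 cultures, and the difference was 0.92 ± 0.13 (SE, limma adjusted p = 0.0442). Under quantile normalization Celsr1 had a limma adjusted p of 0.0663, and leaving out the replicate block or any 1 pair, or a pseudocount of 1, ended the call of both genes. Celsr3 is used by growing axons. The neuron genes also rose, as given above, and whether the changes are linked was not tested.

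Vangl1, a membrane partner of the Celsr proteins, read 240.2, 264 and 318 in RA and 481, 423 and 455 in Ag1.3 cultures, with no overlap, at 0.70 ± 0.11 (SE, limma adjusted p = 0.058). Its relative Vangl2 read 0.28 higher and Daam1, which links Dishevelled to actin, 0.26 higher, each in 3 of 3 pairs and neither past the threshold. The groups overlapped for Vangl2 and not for Daam1. Celsr2, Prickle1 and Prickle2 read 0.19, 0.17 and 0.23 higher with overlapping groups.

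**Figure D4:**
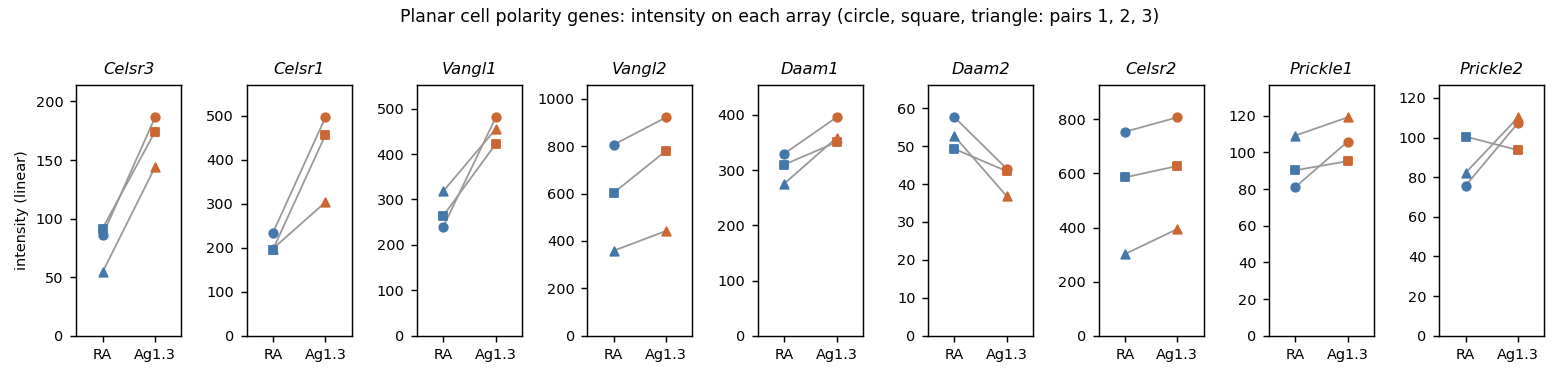
Linear probe set intensity (y axis, from 0) on each array for the 9 planar cell polarity genes, with lines joining the RA and the Ag1.3 culture of pairs 1 to 3. Celsr3, Celsr1, Vangl1 and Daam1 run upwards in all 3 pairs without overlap. Vangl2 and Celsr2 are spread widely between pairs, and Daam2 goes down in all 3 pairs without overlap.

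In the other lists no gene passed the threshold. Of 12 genes of Wnt secretion and co-receptors, 3 had an unadjusted p under 0.05, all lower. Porcn, the enzyme that attaches the lipid to Wnt proteins, had the smallest p of these and read 302, 423 and 517 in RA and 231, 254 and 368 in Ag1.3 cultures, lower in every pair at -0.51 ± 0.09 with overlap between groups (SE, limma adjusted p = 0.0808). Of 25 genes acting in the cytoplasm and nucleus, 4 read higher and 2 lower with an unadjusted p under 0.05, or 24.0% together, beside the same 14.9%. Dact2, which binds Dishevelled, read 32.3, 36.0 and 75.4 in RA and 13.3, 22.45 and 59.8 in Ag1.3 cultures, at -0.48 ± 0.11 (SE, limma adjusted p = 0.127), pair 3 being the brightest in both groups. Of 13 further extracellular inhibitors and targets, 1 read higher and 3 lower with an unadjusted p under 0.05, or 30.8% together, again beside 14.9%. Cdx1, a caudal homeobox gene controlled by Wnt signals and retinoic acid, read 53.9, 56.3 and 56.05 in RA and 30.15, 43.2 and 30.6 in Ag1.3 cultures, with no overlap, at -0.51 ± 0.10 (SE, limma adjusted p = 0.0909).

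The overall level of the arrays bears on how many Wnt genes counted as lower. Hybridization spikes read 0.192 higher on the log2 scale in Ag1.3 cultures. With the arrays scaled to them the median of all genes moved from -0.01 to -0.16 and that of Wnt genes from 0.02 to -0.10, and 20 instead of 30 of the 53 read above 0. The genes called over the whole array were then 287 higher and 1399 lower, or 17.0% higher, against 195 and 57, or 77.4% higher, with the deposited scale. Sfrp1, Wnt5a and Frzb passed under both scales. Tcf7l2, higher, and Axin2, Fzd5, Fzd8, Rspo1, Wnt1, Wnt4 and Wnt7b, lower, passed on the spike scale and not on the deposited one. On the spike scale 1686 of all 18193 genes passed, against 252 on the deposited one. Tcf7l2 read 0.45 ± 0.12 on the spike scale (SE, limma adjusted p = 0.0404), less than its 0.63 ± 0.10 on the deposited one.

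**Figure D5:**
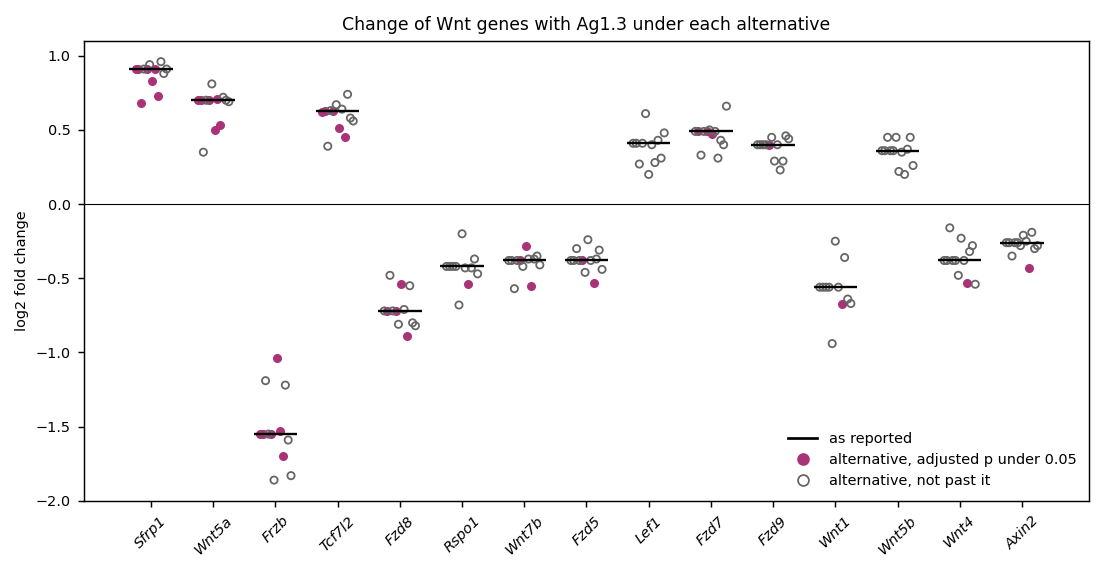
Log2 fold change with Ag1.3 (y axis) of the 15 Wnt genes with an unadjusted p under 0.05, as reported (bar) and under each of up to 12 alternatives (points, filled where limma's adjusted p was under 0.05). No point of these genes lies across 0 from its bar, and Sfrp1, Wnt5a and Frzb passed in 7, 6 and 6 of 12. Leaving out the block, the trended prior variance and the filter could not move a point. Leaving out a pair could not change these signs, as all pairs of each gene had the same sign.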

How the data were processed

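The authors deposited linear probe set intensity values from 6 Affymetrix arrays. Total RNA came from a mirVana isolation, and per the labels' protocols 2.5 ug entered labelling with the 3' IVT Express reagents. The summary method, software, scaling and genome build were not given in the sources used here. Array medians were 48.79 to 52.71. Of 45101 probe sets, 64 were controls, and 34945 of the rest had 1 gene symbol (932 had several, 9160 were not listed). For each of 18193 genes the probe set of highest mean log2 value over the arrays was used. Differences were tested on log2(intensity + 16), which understates changes of dim genes, with limma 3.58.1 in R 4.3.3 (lmFit, eBayes), the replicate number as a block, two-sided, and Benjamini-Hochberg adjustment over all genes at 0.05. The script was tested on simulated data. The p-values measure the spread between 3 pairs of cultures of 1 line, whose small number limits precision.

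Pairing came from the series' design text. Deviations from group means correlated at 0.538, 0.186 and 0.561 across genes for the same number and at -0.515 to 0.073 otherwise. Deviations cancel within each group, which in part forces low values for unlike numbers, so the pairing rests on the design text. Genes, lists, motifs and tests were chosen with earlier results of these data known. All Wnt genes past the threshold or with an unadjusted p under 0.05 were described in full, with the brightest of each role. Of the other pathway genes, those past the threshold were named, or the smallest p of a list. Chosen after their values were seen were Wnt7a, Sp5, Nkd1, Sfrp5 and Notum, the polarity genes besides the Celsr1 and Celsr3 calls, Wls and Dact1. Marker lists were summed per array. Alternatives changed the pseudocount, block, prior variance, probe set rule, filter, scaling or pairs.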

Additional observations from a re-analysis of the deposited data

How the results depend on the processing

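The number of genes past limma's adjusted threshold depended on the processing. With a pseudocount of 1, 0 of all genes passed (2411 with an unadjusted p under 0.05), 0 Wnt genes (18 unadjusted) and 0 other pathway genes (15 unadjusted). With a pseudocount of 64 the counts were 831, 7 and 6, with an intensity-trended prior variance 891, 6 and 9, and over genes above the median probe set 950, 9 and 8 (11441, 30 and 48 tested). Scaled to the hybridization spikes, the counts were 1686, 11 and 12. Without the replicate block, 86 of all genes passed (1348 unadjusted), with 0 Wnt genes (10 unadjusted) and 0 other pathway genes (9 unadjusted). With all probe sets averaged 1 Wnt gene passed, Sfrp1, and under quantile normalization 1 other pathway gene. Without 1 pair, 35 to 62 of all genes passed (1579 to 3031 unadjusted), 0 Wnt genes (14 to 19 unadjusted) and 0 other pathway genes (10 to 17 unadjusted). Of 295 values of 25 named genes over 12 alternatives, 231 kept their direction and side of the threshold, 29 passed only under the alternative, 28 no longer passed, and 7 changed sign. The sign changes were in genes near 0, namely Sfrp2 without 1 pair (-0.20 to 0.19), Wnt6 with averaged probe sets (-0.08), on the spike scale (-0.17) and without 1 pair (-0.03 to 0.04), and Rspo2 likewise (-0.02, -0.18 and -0.04 to 0.04). The cause of these shifts was not tested. Signals within the range of background limit what can be said of 10 Wnt genes.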

Other observations

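Some pathway genes outside the rule for named genes differed between the groups without passing the adjusted threshold. Wls, which carries Wnt proteins to the cell surface, read 655, 639 and 393 in RA and 338, 359 and 349.7 in Ag1.3 cultures. The groups did not overlap, the Ag1.3 arrays lay within a narrow band, and pair 3 differed least, at -0.16 against -0.92 and -0.81 (-0.63 ± 0.16 together, SE, limma adjusted p = 0.16). Dact1, a regulator of Dishevelled, read 209.8, 287 and 364 in RA and 425, 382 and 458 in Ag1.3 cultures, opposite in direction to Dact2, at 0.56 ± 0.14 (SE, limma adjusted p = 0.163). The difference between Dact1 and Dact2 was not tested.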
